A study of Mus musculus with 13 samples.

Results

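Notch signalling passes between touching cells, and 10 genes of this pathway were examined in the lungs of mice that breathed normal or high oxygen: the receptors Notch1, Notch2, Notch3 and Notch4, the ligands Jag1, Jag2 and Dll4, and the transcriptional targets Hes1, Hey1 and Nrarp. They were taken by symbol from the 32544 gene symbols of a count table of mouse lung tissue, and all 10 were found. The libraries came from wild-type C57BL/6J male mice bought at 7 weeks of age. Of these, 7 libraries came from normoxia (21% O2) and 6 from hyperoxia (80% O2), each after 5 days. The lung tissue was perfused, frozen and homogenized, so the RNA is a mixture from many cell types. The libraries were made with Quant-seq, which reads the 3′ end of polyadenylated transcripts. The comparison asks how the abundance of these transcripts differed between hyperoxic and normoxic lung.

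A Notch receptor on the cell surface is bound by a Jagged or Delta-like ligand on a neighbouring cell, cut first by an ADAM protease and then by γ-secretase, and its freed intracellular part enters the nucleus, where it joins the DNA-binding protein RBPJ and Mastermind-like coactivators to switch on targets such as the Hes and Hey repressors. In blood vessels DLL4 acts on NOTCH1 and NOTCH4 of endothelial cells and is linked to arterial identity, JAG1 acts on NOTCH3 of smooth muscle cells and pericytes, and in the airways Jagged ligands and NOTCH2 help to set the balance of secretory and ciliated cells. NRARP is a small protein made in response to Notch that dampens the signal.

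In hyperoxia Hey1 fell to 19.2% of its normoxic mean, Dll4 fell to 62.8% and Notch1 rose to 135%. The other 7 genes (Notch2, Notch3, Notch4, Jag1, Jag2, Hes1 and Nrarp) did not pass the test. The test was the quasi-likelihood test of edgeR on counts, with p-values adjusted by the Benjamini-Hochberg method over the 12496 genes tested, a threshold of 0.05, and positive log2 fold changes for higher values in hyperoxia. All 10 genes passed the filter on low counts. With the same test 11.8% of all genes tested were higher in hyperoxia (1473) and 10.8% were lower (1346), so 1 of 10 higher and 2 of 10 lower is a share near the background. The median log2 fold change was 0.06 over the 10 genes and −0.03 over all genes tested.

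The promoters of the 2 called genes of opposite direction with a RefSeq window are shown first, since Dll4 and Notch1 are a ligand and its receptor that moved apart. Each run is the reference sequence of 300 bases from RefSeq on GRCm38.p6, 5′ to 3′ on the strand of the gene, with the 250 bases before the start site in lower case and the 50 bases from the start site on in capitals. The Dll4 window lies at chr2:119325534-119325833 on the plus strand, and the Notch1 window at chr2:26503773-26504072 on the minus strand, inside the span that GENCODE M21 gives to Notch1.
Dll4: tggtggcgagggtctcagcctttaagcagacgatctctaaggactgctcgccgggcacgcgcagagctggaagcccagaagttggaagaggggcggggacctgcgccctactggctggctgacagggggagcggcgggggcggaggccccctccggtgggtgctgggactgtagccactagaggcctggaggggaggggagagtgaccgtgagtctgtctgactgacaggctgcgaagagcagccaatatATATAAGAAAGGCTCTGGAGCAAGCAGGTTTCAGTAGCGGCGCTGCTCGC
Notch1: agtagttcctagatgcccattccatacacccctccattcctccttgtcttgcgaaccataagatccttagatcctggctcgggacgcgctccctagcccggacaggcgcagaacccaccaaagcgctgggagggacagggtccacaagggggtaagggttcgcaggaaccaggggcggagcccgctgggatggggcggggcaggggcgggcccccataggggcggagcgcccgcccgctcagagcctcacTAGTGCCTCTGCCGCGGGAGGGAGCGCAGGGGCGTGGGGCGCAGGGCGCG

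Windows were present for 8 of the 10 genes (Hes1 and Hey1 had none). The letters of the RBPJ core motif, TGGGAA, were searched on both strands and occurred in 0 of the 8 windows, compared with 25.6% of the 32851 windows of all genes. The longer form GTGGGAA, which contains the core, occurred in 0 of 8 and in 6.38% of all windows. These counts say only that the letters are not in these windows.

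On GRCm38, with the GENCODE M21 annotation, Notch1 spans chr2:26457903-26516663 on the minus strand and Dll4 spans chr2:119325784-119335962 on the plus strand. Hey1 spans chr3:8663359-8667256 on the minus strand and overlaps no other annotated gene, as is also the case for Jag1 and Hes1. Notch1, Notch3, Notch4, Dll4 and Nrarp each overlap at least 1 gene on the opposite strand. Whether the counting used strand is not given in the sources used here, so reads of such partners could be counted with these genes. Of the overlapping genes only Gm20462, which lies opposite Notch4, was a row of the count table, and it held 4 counts over the 13 libraries.

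The totals of counts ranged from 1607111 to 4540288 per library. Values are given as CPM (each count relative to the total of its library), adjusted by the TMM method, which sets libraries on a common scale by the bulk of their genes. Hyperoxia replicate 1 stood apart from the other libraries. Its median correlation with the others over genes was 0.784, compared with 0.886 to 0.931 for the rest, it had the fewest genes with a count (14170), and mitochondrial transcripts took 0.944% of its counts compared with 1.94% to 3.24% in the others. It also had the lowest summed level of airway markers (232 CPM) and of alveolar epithelial markers (718 CPM) and the highest of mural markers (849 CPM). Values of the 10 genes and of their ratios that moved by over 1.5 times without it are therefore given both ways. The labels do not say that replicate numbers are shared between the groups. They do not state separate animals for each library either, so p-values measure the spread between these libraries.

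**Figure D1:**
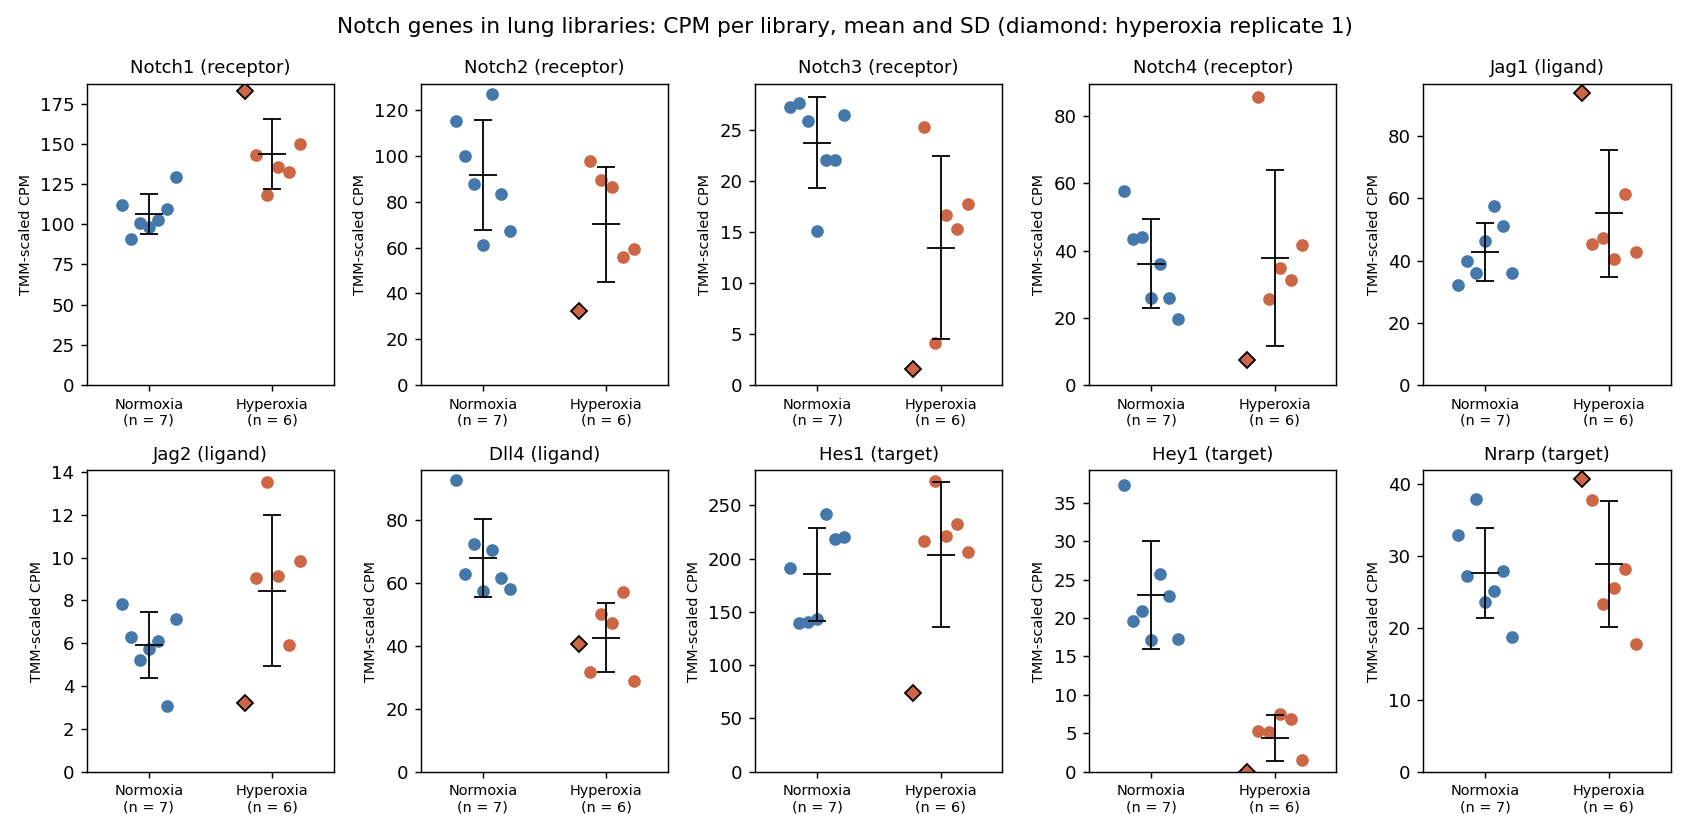
Expression of the 10 Notch genes in each library, as TMM-scaled CPM on a linear axis from 0 (blue, 7 normoxic libraries; orange, 6 hyperoxic libraries; horizontal lines, mean; bars, SD). The groups do not overlap for Dll4 and Hey1, 5 of 6 hyperoxic libraries lie above every normoxic library for Notch1, and the diamond (Hyperoxia replicate 1) is the highest hyperoxic library for Notch1, Jag1 and Nrarp and the lowest for Notch2, Notch3, Notch4, Jag2, Hes1 and Hey1.

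Among the receptors, Notch1, which is found on endothelial and many other cells of the lung, was the member that rose. Its level ran from 90.8 to 129 CPM in normoxia with a median of 103 (mean 106 ± 12.4, SD, n = 7) and from 118 to 183 CPM in hyperoxia with a median of 139 (mean 144 ± 21.9, SD, n = 6). Of the hyperoxic libraries, 5 of 6 were above every normoxic library and the sixth lay within the normoxic range. This was a log2 fold change of 0.43 (SE 0.13, 95% interval 0.16 to 0.71), with an adjusted p of 0.0238 by edgeR. The libraries were also split by the first letter of their names into B to M (5 normoxic and 3 hyperoxic libraries) and O to S (2 and 3). The labels do not state this split, and letters are missing within B to M as well as between the sets. The difference in log2 CPM was 0.53 within B to M and 0.22 within O to S. Without Hyperoxia replicate 1, which had the highest level, the log2 fold change was 0.37 and the call was kept, whereas without Normoxia replicate 2, which had the lowest, it was 0.43 with an adjusted p of 0.0509 by edgeR.

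The call of Notch1 did not hold in each alternative fit. With library size alone the log2 fold change was 0.36 (adjusted p = 0.0615, edgeR) and with limma on the deposited log values it was 0.35 (adjusted p = 0.056). With the replicate block it was 0.48 (adjusted p = 0.0625, edgeR), though the numbers do not pair the libraries.

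Notch2, the receptor linked to secretory cell fate in the airway, did not pass the test. Its level ran from 61.2 to 127 CPM in normoxia with a median of 87.7 (mean 91.6 ± 24.1, SD, n = 7) and from 32.2 to 97.9 CPM in hyperoxia with a median of 73.0 (mean 70.2 ± 25.1, SD, n = 6). The groups overlapped, with 3 of 6 hyperoxic libraries below every normoxic library. Notch2 thus had a log2 fold change of −0.38 (SE 0.24, 95% interval −0.89 to 0.13, adjusted p = 0.287, edgeR), and −0.21 without Hyperoxia replicate 1, the library with the lowest level.

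Notch3, the receptor of vascular smooth muscle and pericytes, was lower on average but did not pass the test. It ran from 15.1 to 27.6 CPM in normoxia with a median of 25.8 (mean 23.8 ± 4.45, SD, n = 7) and from 1.61 to 25.3 CPM in hyperoxia with a median of 16.0 (mean 13.5 ± 8.94, SD, n = 6). Hyperoxia replicate 1 held 3 counts and Hyperoxia replicate 3 held 12, both below the normoxic range, while the other 4 lay within it. For Notch3 the log2 fold change was −0.79 (SE 0.39, 95% interval −1.63 to 0.04, adjusted p = 0.165, edgeR). It was −0.57 without Hyperoxia replicate 1 and −1.03 without Hyperoxia replicate 2, and neither value passed the test.

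Notch4, the receptor most restricted to endothelium, showed no change that the libraries could resolve. Its level ran from 19.6 to 57.9 CPM in normoxia with a median of 36.1 (mean 36.1 ± 13.4, SD, n = 7) and from 7.51 to 85.8 CPM in hyperoxia with a median of 33.0 (mean 37.8 ± 26.2, SD, n = 6). Both the lowest and the highest library of all 13 were hyperoxic (replicates 1 and 2). For Notch4 the log2 fold change was 0.07 (SE 0.38, 95% interval −0.74 to 0.88, adjusted p = 0.919, edgeR). Its sign changed with the library left out (0.29 without Hyperoxia replicate 1, −0.32 without Hyperoxia replicate 2, −0.03 without Normoxia replicate 7), and the difference in log2 CPM was −0.62 within names B to M and 0.64 within O to S.

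Among the ligands, Dll4, the Delta-like ligand of endothelial cells and in particular of arteries and sprouting tips, fell. Its level ran from 57.5 to 92.6 CPM in normoxia with a median of 62.9 (mean 67.9 ± 12.3, SD, n = 7) and from 28.9 to 57.2 CPM in hyperoxia with a median of 44.1 (mean 42.7 ± 11.0, SD, n = 6). The groups did not overlap, although the highest hyperoxic library lay just under the lowest normoxic one. Every hyperoxic library was below every normoxic library for 5.23% of all genes tested, and for 2 of the 10 Notch genes (Dll4 and Hey1). Every hyperoxic library was above every normoxic library for 5.6% of all genes tested and for 0 of the 10. The log2 fold change of Dll4 was −0.67 (SE 0.18, 95% interval −1.05 to −0.29, adjusted p = 0.0136, edgeR). It ran from −0.75 to −0.55 when each library was left out in turn, with the call kept each time, and the difference in log2 CPM was −0.80 within names B to M and −0.48 within O to S.

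The Jagged ligands did not pass the test. Jag1, which is made by endothelium and smooth muscle among other cells, ran from 32.1 to 57.6 CPM in normoxia with a median of 39.8 (mean 42.7 ± 9.31, SD, n = 7) and from 40.4 to 93.8 CPM in hyperoxia with a median of 46.3 (mean 55.2 ± 20.3, SD, n = 6). All 6 hyperoxic libraries lay above the normoxic median, but only 2 lay above the normoxic range. The log2 fold change of Jag1 was 0.36 (SE 0.21, 95% interval −0.08 to 0.81, adjusted p = 0.239, edgeR), and 0.17 without Hyperoxia replicate 1.

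Jag2, a ligand present at few counts here, ran from 3.07 to 7.84 CPM in normoxia with a median of 6.13 (mean 5.92 ± 1.53, SD, n = 7) and from 3.22 to 13.5 CPM in hyperoxia with a median of 9.11 (mean 8.46 ± 3.54, SD, n = 6). Of the hyperoxic libraries, 4 of 6 were above every normoxic one and Hyperoxia replicate 1 was near the bottom of the normoxic range with 6 counts. For Jag2 the log2 fold change was 0.54 (SE 0.30, 95% interval −0.11 to 1.18, adjusted p = 0.227, edgeR). The counts of Jag2 were between 6 and 45 per library.

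Among the targets, Hey1, a repressor of the hairy-related family with a role in arterial endothelium, had the strongest fall of the 10 genes. Its level ran from 17.2 to 37.3 CPM in normoxia with a median of 20.9 (mean 23.0 ± 7.03, SD, n = 7) and from 0 to 7.54 CPM in hyperoxia with a median of 5.25 (mean 4.41 ± 3.00, SD, n = 6). In counts, the normoxic libraries held 42 to 100 and the hyperoxic libraries 0, 14, 15, 28, 22 and 7 for replicates 1 to 6, so every hyperoxic library was below the normoxic range. The library with 0 counts, Hyperoxia replicate 1, allows a level of up to 1.61 CPM (3 counts), a limit that covers counting error only. Hey1 had a log2 fold change of −2.33 (SE 0.43, 95% interval −3.25 to −1.42, adjusted p = 0.00115, edgeR). It was −2.11 without Hyperoxia replicate 1 (the smallest fall over all 13 omissions) and reached −2.54 without Hyperoxia replicate 4. The difference in log2 CPM was −3.06 within names B to M and −2.0 within O to S. Hey1 was the only one of the 10 that also passed a log2 fold change below −1.5, a criterion met by 2.35% of all genes tested.

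Hes1, a repressor that answers to Notch and to several other pathways, did not pass the test. It ran from 140 to 242 CPM in normoxia with a median of 192 (mean 185 ± 43.6, SD, n = 7) and from 74.0 to 273 CPM in hyperoxia with a median of 219 (mean 204 ± 67.6, SD, n = 6). Hyperoxia replicate 1 was the lowest of all 13 libraries, whereas the other 5 hyperoxic libraries were above the normoxic median. The log2 fold change was 0.14 (SE 0.24, 95% interval −0.37 to 0.65, adjusted p = 0.721, edgeR), and ran from 0.057 without Hyperoxia replicate 3 to 0.33 without Hyperoxia replicate 1, again not past the threshold.

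Nrarp, the feedback inhibitor, was at nearly the same mean level in both groups. It ran from 18.7 to 37.9 CPM in normoxia with a median of 27.3 (mean 27.6 ± 6.27, SD, n = 7) and from 17.7 to 40.7 CPM in hyperoxia with a median of 26.9 (mean 28.9 ± 8.81, SD, n = 6). The ranges nearly coincided. The log2 fold change was 0.05 (SE 0.22, 95% interval −0.40 to 0.51, adjusted p = 0.892, edgeR), with a sign that depended on the scaling and on the library left out (−0.05 without Hyperoxia replicate 1, −0.0035 without Hyperoxia replicate 2 and −0.0064 without Normoxia replicate 7).

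Ratios between 2 genes within a library do not depend on how libraries are scaled, and 4 pairs were compared by an exact two-sided permutation test over all 1716 assignments of the libraries. The pairs were chosen with earlier results of these data known. Dll4 and Hey1 each separated the groups on their own, so the p-values of their pairs are not support independent of those falls. The log2 ratio of Jag1 to Dll4, ligands of different classes, was −0.68 ± 0.46 (SD, n = 7) in normoxia, with a range of −1.52 to −0.26, and 0.34 ± 0.52 (SD, n = 6) in hyperoxia, with a range of −0.23 to 1.20. The ratio was thus higher in every hyperoxic library than in any normoxic one, with a difference of 1.02 (exact permutation p = 0.000583, the smallest this design allows, 0.00117 adjusted over the 4 pairs). The difference was 0.85 to 1.13 when each library was left out, 1.30 within names B to M and 0.62 within O to S.

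The log2 ratio of Hes1 to Hey1, both repressors and both targets, was 3.01 ± 0.42 (SD, n = 7) in normoxia, with a range of 2.35 to 3.66, and 5.99 ± 1.28 (SD, n = 6) in hyperoxia, with a range of 4.85 to 8.11. With 0.5 added to each count the difference was 2.98 (exact permutation p = 0.000583, 0.00117 adjusted), and it was 2.55 without Hyperoxia replicate 1, the library with no Hey1 count, 3.52 within names B to M and 2.17 within O to S. The ratio was higher in every hyperoxic library than in any normoxic one, and its highest value, 8.11, rests on the 0.5 added to a count of 0.

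The receptor pairs did not separate. The log2 ratio of Notch1 to Notch4 was 1.63 ± 0.64 (SD, n = 7) in normoxia and 2.23 ± 1.26 (SD, n = 6) in hyperoxia, a difference of 0.60 (exact permutation p = 0.316, 0.316 adjusted) that was 0.13 without Hyperoxia replicate 1, 0.90 without Hyperoxia replicate 2 and −0.43 within names O to S. The log2 ratio of Notch2 to Notch3 was 1.92 ± 0.35 (SD, n = 7) in normoxia and 2.73 ± 1.19 (SD, n = 6) in hyperoxia, a difference of 0.81 (exact permutation p = 0.125, 0.167 adjusted) that was 0.53 without Hyperoxia replicate 1, 0.48 without Hyperoxia replicate 3, 1.43 within names B to M and 0.36 within O to S.

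**Figure D2:**
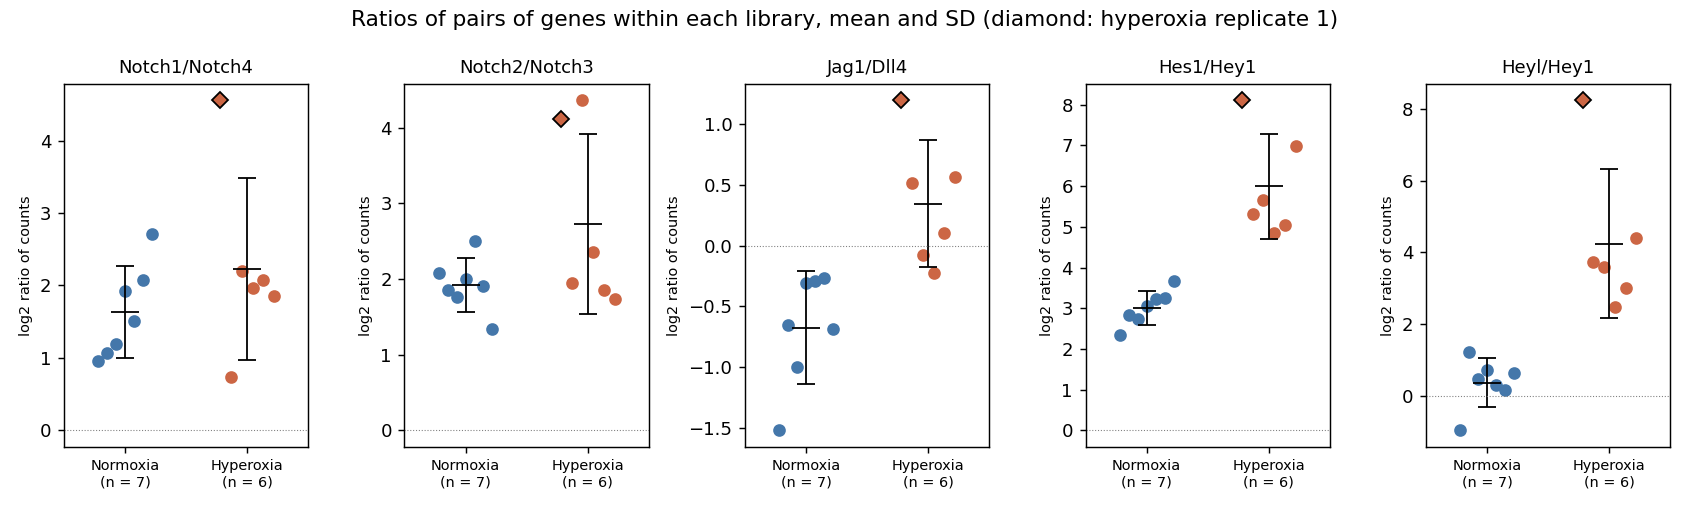
Log2 ratio of the counts of 2 genes within each library (0.5 added to each count; blue, 7 normoxic libraries; orange, 6 hyperoxic libraries; horizontal lines, mean; bars, SD; diamond, Hyperoxia replicate 1). The groups overlap for Notch1/Notch4 and Notch2/Notch3 and are apart for Jag1/Dll4, Hes1/Hey1 and Heyl/Hey1, the last of which was chosen after its values were seen.

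The wider pathway was covered by a list of 55 further Notch genes, of which 44 passed the filter on low counts. In hyperoxia 2 of the 44 rose (Heyl and Dtx4), 7 fell (Efnb2, Tle2, Neurl1b, Lfng, Numb, Tle1 and Kat2b) and 35 did not pass the test, against the 11.8% higher and 10.8% lower of all genes tested. Their median log2 fold change was −0.12. The counts for parts of this list, given below, are to be read against the same shares.

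Among the other targets 3 of 8 were tested, and the members of the Hes and Hey families did not move together. Efnb2, which encodes the arterial ephrin ligand, ran from 88.8 to 148 CPM in normoxia (mean 114 ± 22.8, SD, n = 7) and from 38.9 to 71.0 CPM in hyperoxia (mean 52.7 ± 11.5, SD, n = 6). Its groups did not overlap, and the log2 fold change was −1.12 (SE 0.17, adjusted p = 0.000276, edgeR). Heyl, a Hey family member known from smooth muscle and pericytes, ran from 19.0 to 46.1 CPM with a median of 28.6 in normoxia (mean 29.6 ± 8.31, SD, n = 7) and from 34.8 to 81.5 CPM with a median of 60.8 in hyperoxia (mean 58.9 ± 18.0, SD, n = 6).

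The rise of Heyl had a log2 fold change of 0.99 (SE 0.22, adjusted p = 0.00475, edgeR) and 4 of 6 hyperoxic libraries exceeded the whole normoxic range. Within a library, the log2 ratio of Heyl to Hey1 ran from −0.96 to 1.23 in normoxia with a median of 0.47 and from 2.48 to 8.25 in hyperoxia with a median of 3.67. The highest value, in Hyperoxia replicate 1, rests on the 0.5 added to a Hey1 count of 0, and the next highest was 4.41. This ratio was chosen after its values were seen and was not tested. Hes6 was tested and not called, and Hey2, with 95 counts over the 13 libraries, was under the filter.

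Of the glycosyltransferases that modify Notch receptors, 1 of 5 fell. Lfng, the Lunatic fringe enzyme that tunes which ligands a receptor answers to, averaged 7.92 ± 3.08 CPM in the normoxic libraries (SD, n = 7) against 3.13 ± 1.35 CPM in the hyperoxic ones (SD, n = 6), with a log2 fold change of −1.30 (SE 0.35, adjusted p = 0.0142, edgeR) and a difference in log2 CPM of −1.5 within names B to M and −0.58 within O to S. Of the 4 tested ligases that act in ligand endocytosis, Neurl1b fell (12.2 ± 3.81 CPM to 6.10 ± 1.65 CPM, SD, log2 fold change −1.0, adjusted p = 0.0129, edgeR). None of the 9 sheddase and γ-secretase genes passed the test. Of the further ligands only Dll1 was tested, with means of 7.78 and 7.35 CPM and an adjusted p of 0.888 by edgeR.

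In the nuclear complex 1 of 7 genes fell. Rbpj, which encodes the DNA-binding partner of all 4 receptors, averaged 103 ± 7.31 CPM in the normoxic libraries (SD, n = 7) against 113 ± 21.1 CPM in the hyperoxic ones (SD, n = 6) (log2 fold change 0.13, SE 0.13, adjusted p = 0.524, edgeR, and 0.07 without Hyperoxia replicate 1). Kat2b, an acetyltransferase coactivator (difference in log2 CPM −0.97 within names B to M and −0.43 within O to S), was lower in every hyperoxic library than in any normoxic one (79.2 ± 5.89 CPM to 50.9 ± 16.3 CPM, log2 fold change −0.63, adjusted p = 0.0294, edgeR), but the call was lost by edgeR without Normoxia replicate 1 (−0.59, adjusted p = 0.0588), 2 (−0.60, 0.0586) or 3 (−0.62, 0.0501) and without Hyperoxia replicate 2 (−0.60, 0.0556) or 6 (−0.58, 0.062).

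Of the 15 tested inhibitors and corepressors 1 rose and 3 fell. Numb, the endocytic inhibitor of Notch receptors, fell from 99.1 ± 29.4 CPM to 51.7 ± 20.4 CPM (SD, log2 fold change −0.93, adjusted p = 0.0180, edgeR), with a difference in log2 CPM of −1.24 within names B to M and −0.48 within O to S. The Groucho-type corepressor Tle2 fell without overlap from 9.55 ± 1.85 to 3.49 ± 1.72 CPM (SD, log2 fold change −1.42, adjusted p = 0.0026, edgeR). Its relative Tle1 fell from 71.6 ± 9.43 to 51.1 ± 7.55 CPM (SD, log2 fold change −0.48, adjusted p = 0.0190, edgeR), a call lost without Normoxia replicate 4 (−0.43, adjusted p = 0.0527, edgeR) or Hyperoxia replicate 2 (−0.43, adjusted p = 0.0529, edgeR) and with no filter on low counts (−0.45, adjusted p = 0.0599, edgeR).

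The Deltex ligase gene Dtx4 rose from 7.33 ± 2.01 to 13.5 ± 5.76 CPM (SD, log2 fold change 0.90, adjusted p = 0.0322, edgeR). Its difference in log2 CPM was 0.44 within names B to M and 1.18 within O to S. The call of Dtx4 by edgeR was lost without Normoxia replicate 4 (0.84, adjusted p = 0.0555) or 7 (0.87, 0.0559) and without Hyperoxia replicate 4 (0.76, 0.0779) or 6 (0.76, 0.0779). It was also lost with the library name set as a term (0.83, adjusted p = 0.0649, edgeR), with library size alone (0.84, adjusted p = 0.054, edgeR) and with limma on the deposited log values (0.67, adjusted p = 0.088). The same held with libraries scaled to mural markers (0.31, adjusted p = 0.419, edgeR) or to general endothelial markers (1.17, adjusted p = 0.079, edgeR).

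**Figure D3:**
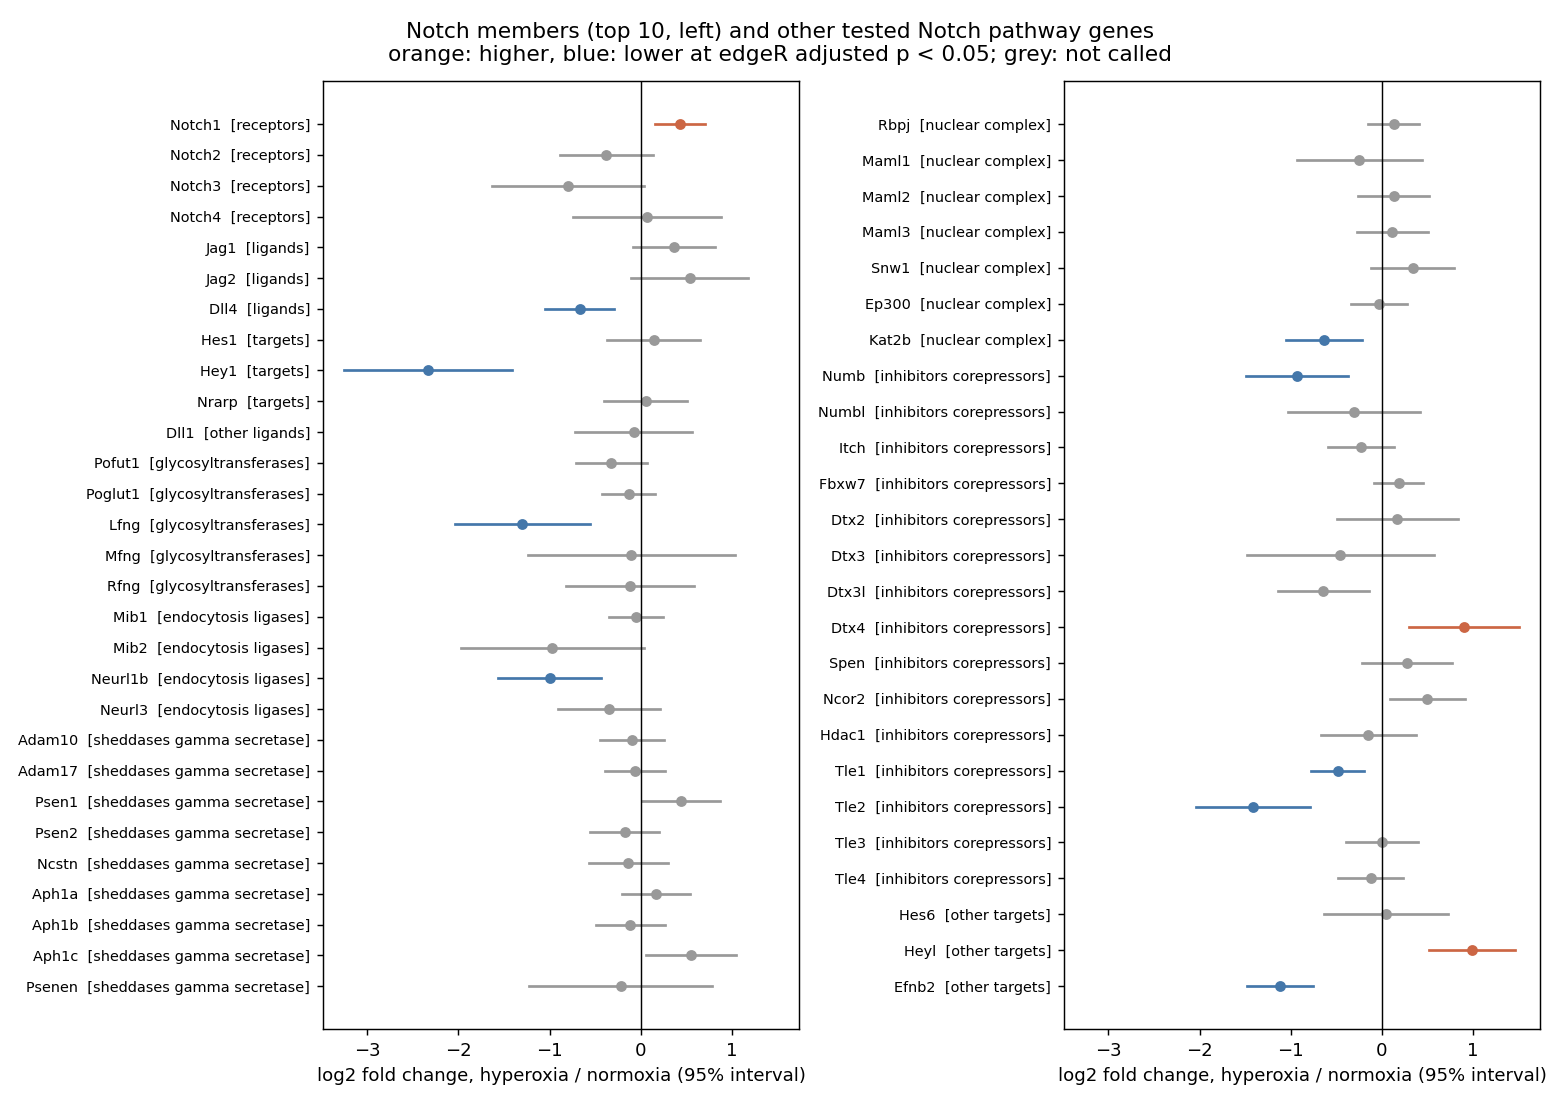
Log2 fold changes (hyperoxia over normoxia) of the 10 Notch genes, at the top left, and of the 44 other tested pathway genes, with 95% intervals from edgeR (orange, higher and blue, lower at an adjusted p under 0.05; grey, not called). Hey1 has the lowest value (−2.33), Notch1, Heyl and Dtx4 are the genes called higher, and the sheddases and γ-secretase genes are all grey.

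Several cell types of the lung use these genes, and their marker genes moved between the groups too. In bulk tissue, fewer cells of a type and less RNA per cell cannot be told apart. The counts of called markers are to be read beside the 11.8% higher and 10.8% lower of all genes tested. Of 10 general endothelial markers 2 rose and 3 fell, and their summed level overlapped (2932 to 5483 CPM in normoxia, 2513 to 5953 CPM in hyperoxia). Those higher were Egfl7 and Eng (log2 fold changes 1.37 and 1.02), and those lower were Tek (−0.94), Erg (−0.77) and Tie1 (−0.70), which were named after their values were seen. Pecam1, the most abundant, was not called (−0.79, adjusted p = 0.198, edgeR). Of 6 arterial markers 3 fell, among them Sox17 (log2 fold change −1.17), and 1 rose, with sums of 222 to 333 CPM in normoxia and 154 to 221 CPM in hyperoxia. Of 6 capillary markers 4 fell and 0 rose, with sums of 796 to 1071 CPM in normoxia and 451 to 758 CPM in hyperoxia. Those lower were Aplnr (−6.12), Ednrb (−1.89), Gpihbp1 (−1.53) and Car4 (−0.83). The part of these markers in the values of Dll4, Hey1 and Efnb2 was not tested.

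Of 8 mural markers, those of smooth muscle and pericytes, 3 rose, among them Acta2 (log2 fold change 0.77) and Des (0.96). Cox4i2 fell (−0.80, adjusted p = 0.0489, edgeR), and 4 were not called, among them Pdgfrb (−0.27). The summed level of the 8 was 349 to 436 CPM in normoxia and 499 to 849 CPM in hyperoxia, higher in every hyperoxic library, beside the rise of Heyl, while Notch3 did not pass the test. The largest parts of the sum were Acta2 (mean 133 CPM in normoxia and 226 in hyperoxia) and Des (90.6 and 176). Airway markers summed to 14515 to 53140 CPM in normoxia and 232 to 10058 CPM in hyperoxia, with 2 of 6 lower and 0 higher. Most of this sum was Scgb1a1 (mean 33862 CPM in normoxia and 4349 in hyperoxia). The other 4 were not called, among them the ciliated cell markers Foxj1 (log2 fold change −0.0077) and Ccdc39 (−0.095). Alveolar epithelial markers summed to 6360 to 15826 CPM and 718 to 4666 CPM, with 3 of 6 lower and 0 higher. The largest part of that sum was Sftpc (mean 9637 CPM in normoxia and 1465 in hyperoxia). The other 3 were not called, among them Ager (log2 fold change −0.11) and Sftpb (−0.38). No marker of these lists was at 0 in a whole group. The capillary marker Aplnr, however, had a hyperoxic median of 0 CPM and a highest value of 0.625 CPM, against 6.06 to 20.9 CPM in normoxia. The part of these shifts in the values of the Notch genes was not tested.

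Scaling the libraries to the summed counts of a marker list instead of to all genes gave the values per unit of that sum. The largest parts of the general endothelial sum were Pecam1 (mean 2773 CPM in normoxia and 1605 in hyperoxia) and Egfl7 (501 and 1296), which moved in opposite directions. That sum therefore follows these genes more than the list as a whole. Relative to the general endothelial markers, Hey1 was still called lower (log2 fold change −2.25, adjusted p = 0.00278, edgeR), while Dll4 (−0.60, adjusted p = 0.169, edgeR) and Notch1 (0.54, adjusted p = 0.261, edgeR) were not called. Relative to the mural markers the median of all genes moved to −0.63, and 5580 of the 12496 genes tested were called lower and 306 higher. Notch2 (−0.92, adjusted p = 0.024), Notch3 (−1.35, adjusted p = 0.0212), Dll4 (−1.28, adjusted p = 0.000386) and Hey1 (−2.90, adjusted p = 0.000357) were called lower by edgeR, a share of the 10 near that background. On that scale Notch1 turned to −0.19 (adjusted p = 0.222, edgeR) and Heyl was 0.38 (adjusted p = 0.188, edgeR). Hey1 was lower with either scaling.

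**Figure D4:**
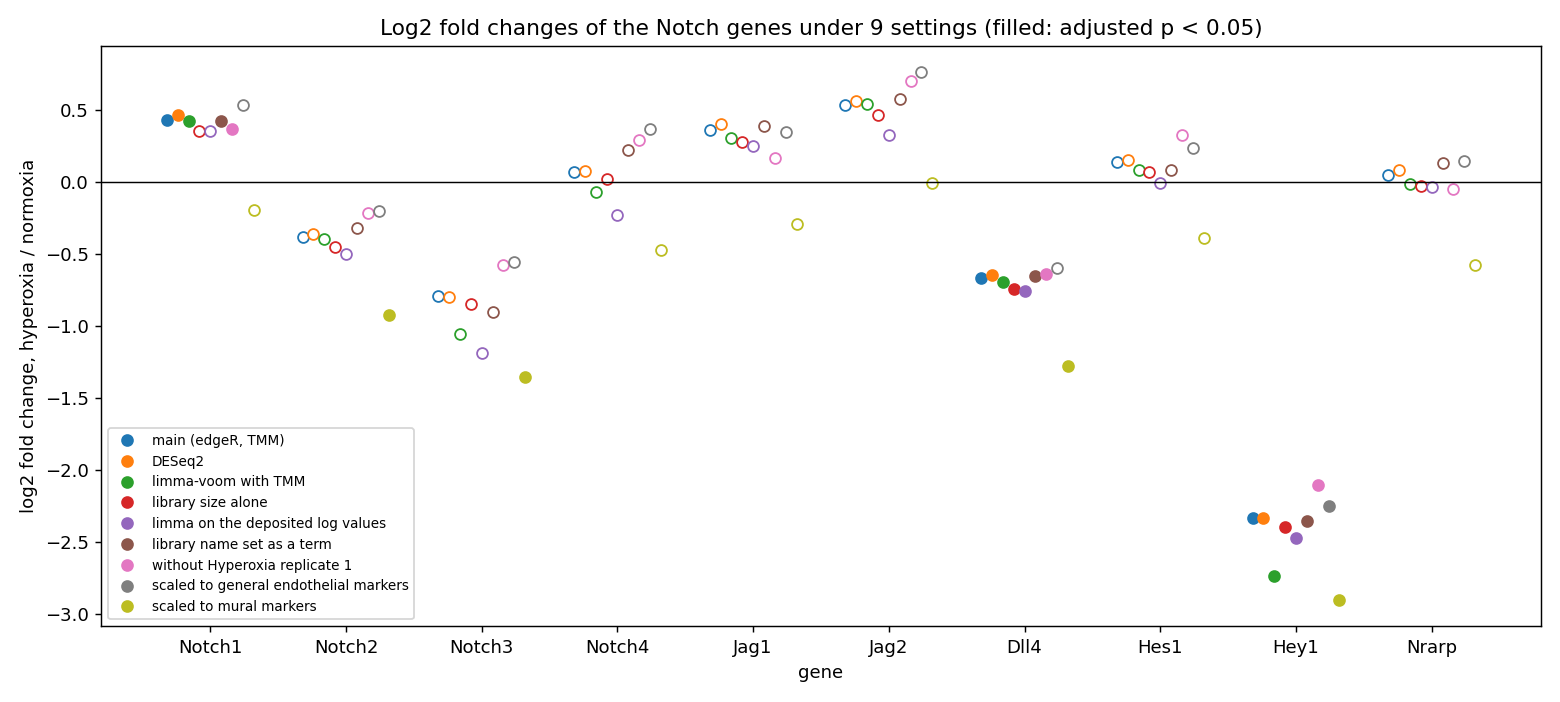
Log2 fold change of each Notch gene under 9 ways of testing or scaling (filled circles, adjusted p under 0.05; open circles, not called). The values of Hey1 lie between −2.90 and −2.11 and are filled in all 9, those of Dll4 are negative in all 9 and open with scaling to general endothelial markers, and those of Notch4, Hes1 and Nrarp cross 0 in settings other than mural scaling. Notch1, Jag1 and Jag2 are below 0 only with mural scaling, which moved the median of all genes to −0.63.

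For the 3 called genes, the genes with the most similar course over the 13 libraries were found among 10111 genes by the root mean square difference of centred log2 CPM. For Hey1 they were Fgfr2, a fibroblast growth factor receptor (0.50, log2 fold change −2.03), Slc34a2, the phosphate transporter of alveolar type II cells (0.50, −1.72), and Reck, an inhibitor of matrix metalloproteinases (0.50, −1.46). For Dll4 they were Gimap8 (0.19, log2 fold change −0.70), the growth factor gene Fgf7 (0.20, −0.64) and Cbx6, a Polycomb component (0.20, −0.59). For Notch1 they were Cog8 of the Golgi (0.11, log2 fold change 0.50), the splicing factor gene Srrm1 (0.11, 0.33) and Gna13, a G protein subunit (0.11, 0.42), of which Srrm1 was not called (adjusted p = 0.0699, edgeR). These are descriptions over libraries that share group and depth.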

How the data were processed

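RNA of perfused lung tissue was sequenced as 13 3′ Quant-seq libraries (7 Normoxia, 6 Hyperoxia, grouped by sample title). The authors quantified reads with kallisto in the BioJupies pipeline (genome build mm10 per the labels) and deposited whole-number counts per gene symbol, 1607111 to 4540288 per library. They also deposited log10 values, which equalled log10(CPM + 1) of those counts to within 4.44e-16 for the 10 Notch genes. Each column matched 1 sample, and 0 were left unmapped. The sets B to M and O to S are a split by library name that the labels do not state, and they are not taken as batches.

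Counts were filtered with filterByExpr (12496 of 32544 symbols kept), scaled by TMM and tested with the quasi-likelihood test of edgeR 4.0.16 (R 4.3.3), hyperoxia against normoxia without covariates, with Benjamini-Hochberg adjustment over all genes tested. Log2 CPM used a prior count of 2. The 0.5 added to counts in pair ratios and DESeq2 1.42.0, limma 3.58.1, other filters, scalings and omissions were varied. The procedure was tested on simulated data. Where the methods of the study name limma, the count test was preferred because counts were deposited. Among 36 same-group library pairs none matched within sampling noise.

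Same-numbered libraries of the groups did not deviate together (correlations −0.33, 0.27, −0.24, −0.31, −0.07 and −0.14), so the numbers were not taken as pairs. The members and lists were chosen with earlier results of these data known. Named genes are the 10 members, the called pathway genes with Rbpj, Lfng, Hey2, Heyl, Efnb2 and Dll1 whatever their call, for each called member the 3 most similar genes (mean log2 CPM no lower than 3), and up to 3 abundant genes per marker list. Gm20462, Hes6, Tek, Erg, Tie1, Aplnr, Ednrb, Gpihbp1, Cox4i2, Pdgfrb, Foxj1, Ccdc39 and the Heyl to Hey1 ratio were named after their values were seen. Of the other marker lists, 1 of 4 tested fibroblast markers rose and 1 fell, 2 of 5 macrophage, 5 of 5 lymphocyte and 2 of 5 cardiac muscle markers fell, and 0 of 2 erythroid markers were called.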

Additional observations from a re-analysis of the deposited data

Results flagged for a closer look

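In each group of libraries, the highest and the lowest value were compared with the next by Dixon's criterion, for 52 combinations of gene or library measure and group. This gave 4 flags, where chance alone gives about 1 in 20, or 2.6.

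Notch3 in Normoxia replicate 4 was the lowest normoxic value, at 3.98 log2 CPM, with the next library at 4.50. Hes1 in Hyperoxia replicate 1 was the lowest hyperoxic value, at 6.22 log2 CPM, with the next at 7.69. Kat2b in the same library was also the lowest, at 4.50 log2 CPM, with the next at 5.51. The total count of Normoxia replicate 5 was 1607111, with the next normoxic library at 2696280.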

How the results depend on the processing

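The fall of Hey1 was called in all 22 alternatives that tested it (the filter of at least 10 counts in every library left it, Notch3 and Jag2 out), and that of Dll4 in 22 of 23, lost only with scaling to general endothelial markers (−0.60). Notch1 was not called in 6 of 23 alternatives, in 1 of which, mural scaling, its value turned to −0.19 while the median of all genes moved to −0.63. Dtx4 was not called in 10 of 23. Of the 10 Notch genes, 3 were called (1 with endothelial scaling, and 1 when a log2 fold change beyond 1.5 was also required). Of the other pathway genes, 9 were called, 3 with the replicate block, 3 with endothelial scaling, 26 with mural scaling and 0 beyond 1.5. Endothelial scaling lost the calls of Lfng (−1.12), Neurl1b (−0.84), Kat2b (−0.50), Numb (−0.73), Dtx4 (1.17) and Tle1 (−0.36). Of all genes, 2819 were called, 1344 with the replicate block, 1069 with endothelial scaling, 5886 with mural scaling and 488 beyond 1.5. The share of called genes that were higher was 52.3%, and 38.8% with limma on the log values, 62.7% with endothelial and 5.20% with mural scaling. Over all genes, the middle log2 fold change was −0.157 with limma on the log values and −0.104 with library size alone.

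With the replicate block, Notch1 was 0.48 and not called, and Notch4 (−0.19) and Nrarp (−0.049) changed sign. The calls of Lfng (−1.25), Neurl1b (−0.97), Kat2b (−0.70), Numb (−1.05), Dtx4 (0.80) and Tle1 (−0.46) were lost, which is not a measure of a weaker effect, since the numbers do not pair the libraries. Other changes of sign were those of Notch4 with limma-voom (−0.065), limma on the log values (−0.23) and mural scaling (−0.47), of Nrarp with limma-voom (−0.014), limma on the log values (−0.034), library size alone (−0.026), at least 10 counts (−0.026) and mural scaling (−0.58), of Hes1 with limma on the log values (−0.0050) and mural scaling (−0.39), of Jag1 (−0.29), Jag2 (−0.0085) and Rbpj (−0.50) with mural scaling, of Dll1 with endothelial scaling (0.10), and of the Notch1 to Notch4 ratio within names O to S (−0.43). With 1 library left out, Notch4 ran from −0.32 to 0.29, Nrarp from −0.050 to 0.19 and Dll1 from −0.20 to 0.060. The cause of these shifts was not tested. Jag2, Lfng, Dll1 and hyperoxic Hey1 had few counts per library, and the part of depth in their values was not tested.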
